A study of Homo sapiens with 18 samples.

Results

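TFPI2 encodes tissue factor pathway inhibitor 2, a secreted inhibitor of serine proteases. It was found by its gene symbol in the platform annotation, which gave 1 feature (17059828) out of 16098 features with a symbol (14884 distinct symbols) and 53617 features in all. A feature is a transcript cluster of the Affymetrix Human Gene 2.0 ST array. The gene was chosen because its values were far higher after 1 of the oligonucleotides described here, so its differences in MDA-MB-231 and MDA-MB-468 arrays are given as a description, without a test.

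RNA was measured on 18 arrays, 3 for each of 6 groups of human breast cancer cell lines. SKBR3, a HER2-positive line, received either an antisense oligonucleotide (ASO) that targets LINC01269, a long non-coding RNA, or a control ASO. MDA-MB-231 and MDA-MB-468, both triple-negative lines, received either an ASO that targets AL078604.2, another long non-coding RNA, or a control ASO. Between SKBR3 and the other lines, effects of the line and of the ASO target therefore cannot be told apart. All groups were treated with 15 nM of a GapmeR, an ASO that directs cleavage of its target RNA, for 48 h with a transfection reagent, which the control groups received too. The labels do not say how many ASOs were tried per target, and nothing states that replicate arrays came from separate cultures, so p-values measure only the spread between these arrays, which may be technical. In bulk RNA, fewer cells of a type and less RNA per cell cannot be told apart.

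TFPI2 carries tandem Kunitz domains, the fold by which this family blocks trypsin-like proteases. It binds to the extracellular matrix after secretion and inhibits plasmin and trypsin strongly and the tissue factor and factor VIIa complex weakly. It was first known as a placental protein, and its promoter is methylated and silent in many tumours. Its transcription is known to respond to phorbol ester and to signalling through the kinase ERK, with binding sites for AP-1, SP1 and KLF6 described in its promoter.

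The promoter windows of TFPI2 and of DUSP1, a gene whose values followed TFPI2 closely, are shown because transcription factors of the AP-1 and EGR families were among the few related genes that rose. Both are RefSeq sequences of GRCh38.p14, each with 250 bases before the start and 50 after it, on the minus strand, at chr7:93890704-93891003 for TFPI2 and chr5:172771146-172771445 for DUSP1. Capitals mark matches, on either strand, to TGANTCA for AP-1, to TGACGTCA for the cyclic AMP response element (CRE), to GGGCGG for the GC box, to GCGNGGGCG for EGR factors and to TATAAA for the TATA box.
TFPI2: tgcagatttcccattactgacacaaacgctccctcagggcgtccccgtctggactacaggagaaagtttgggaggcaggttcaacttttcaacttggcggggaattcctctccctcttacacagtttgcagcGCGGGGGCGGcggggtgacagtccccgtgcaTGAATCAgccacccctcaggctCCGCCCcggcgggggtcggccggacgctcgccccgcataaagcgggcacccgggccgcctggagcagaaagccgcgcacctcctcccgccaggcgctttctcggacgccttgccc
DUSP1: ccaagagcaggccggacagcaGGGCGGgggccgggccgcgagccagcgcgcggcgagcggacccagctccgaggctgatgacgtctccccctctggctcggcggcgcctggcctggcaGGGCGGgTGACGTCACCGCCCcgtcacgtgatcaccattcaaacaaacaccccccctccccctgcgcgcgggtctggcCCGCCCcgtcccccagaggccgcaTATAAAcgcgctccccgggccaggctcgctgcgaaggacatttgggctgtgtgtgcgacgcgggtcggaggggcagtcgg

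The TFPI2 window held 1 AP-1 match (TGAATCA) whose first base lies at -87 from the start, 2 GC boxes at -114 and -65, and 1 EGR match at -118 that overlaps the first GC box. It held no CRE or TATA match. Of 35114 windows of this length, 7.71% held an AP-1 match, 45% a GC box, 9.43% an EGR match, 1.85% a CRE and 11.5% a TATA match. The DUSP1 window held 1 CRE at -125, 4 GC boxes and 1 TATA match at -30, and no AP-1 or EGR match. Of other genes that followed TFPI2 closely, EDN1 held no AP-1 or EGR match in its 3 windows. FOXD2-AS1 held neither match, and CPA4 held an AP-1 but no EGR match. TFPI2 had 26 CpG dinucleotides in its window, against a median of 14, and 69.9% of windows had fewer. The window overlaps by 240 bases that of TFPI2-DT, a long non-coding RNA gene on the opposite strand. A match of letters is a description of the sequence and shows no binding.

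The deposited values were log2 signals, and the array medians were 4.56 to 4.63 in SKBR3, 5.41 to 5.43 in MDA-MB-231 and 5.21 to 5.24 in MDA-MB-468, so levels were set side by side across lines only as percentiles or after quantile normalization. Replicate arrays correlated at 0.985 to 0.992. Neither targeted RNA has a named feature, so the knockdown was not analysed here. Most markers did not separate the lines as their labels would have it. In control arrays EPCAM, an epithelial adhesion gene known to be low in MDA-MB-231, reached percentile 98.9 among an array's features in SKBR3, 99.2 in MDA-MB-231 and 99.3 in MDA-MB-468. GRB7, a neighbour of ERBB2 that is amplified in SKBR3, stood at 79.1, 81.3 and 78.8 in the same order. RB1, known to be lost in MDA-MB-468, was lowest there, at 24.9, against 47.7 in SKBR3 and 60.3 in MDA-MB-231. Line names below are those of the labels.

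TFPI2 had the largest positive difference of all 29855 tested features in MDA-MB-231 cells given the anti-AL078604.2 ASO. Its log2 values were 8.85, 10.04 and 10.42 in the anti-AL078604.2 arrays, against 7.08, 7.11 and 6.77 in the control arrays. Every treated array lay above every control array. The means were 9.77 ± 0.82 and 6.99 ± 0.19 (SD, n = 3 each), a log2 difference of 2.78 ± 0.36 (SE of the fit) or 6.89-fold. The next feature by size, an unnamed one, had a difference of 2.65. The SE of TFPI2 rests on a spread pooled over all 6 groups. It is therefore the same in each line, although the spread of TFPI2 differed between groups, as given below.

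In MDA-MB-468 cells given the same ASO, TFPI2 was again higher, by a smaller amount. Its log2 values were 8.80, 7.61 and 7.33 in the anti-AL078604.2 arrays, against 6.38, 6.36 and 6.69 in the control arrays. The groups did not overlap, although 1 treated array stood well above the other two. The means were 7.91 ± 0.78 and 6.48 ± 0.19 (SD, n = 3 each), a difference of 1.44 ± 0.36 log2 or 2.71-fold. TFPI2 ranked 4 of 29855 by size of positive difference, after 3 unnamed features, and 1 of the 12003 tested features with a symbol, as it did in MDA-MB-231. All treated arrays lay above all control arrays for 9.28% of tested features in MDA-MB-231 and 8.41% in MDA-MB-468. They lay below all of them for 7.87% and 8.5%, so 17.2% and 16.9% did not overlap in either direction. Whether the difference was larger in MDA-MB-231 than in MDA-MB-468 was not tested, because the gene was chosen on these values.

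In SKBR3 cells given the anti-LINC01269 ASO, TFPI2 did not pass the test. Its log2 values were 6.32, 5.54 and 6.33 in the anti-LINC01269 arrays, against 5.71, 5.81 and 5.78 in the control arrays. Replicate 2 of the treated group lay below all controls and the other two lay above them, so the groups overlapped. In this line all treated arrays lay above all controls for 7.28% of tested features and below them for 4.26%, or 11.5% in either direction. The means were 6.06 ± 0.46 and 5.77 ± 0.05 (SD, n = 3 each), a difference of 0.30 ± 0.36 log2 (limma adjusted p = 0.854 over 29855 features). Among all features 0% were called in this comparison (0 of 29855 by limma, with 2736 at an unadjusted p under 0.05). Without treated replicate 2 the difference was 0.56, and without treated replicate 3 it was 0.16. The rank by size was 1718 of 29855, and 314 of the 12003 tested features with a symbol.

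**Figure D1:**
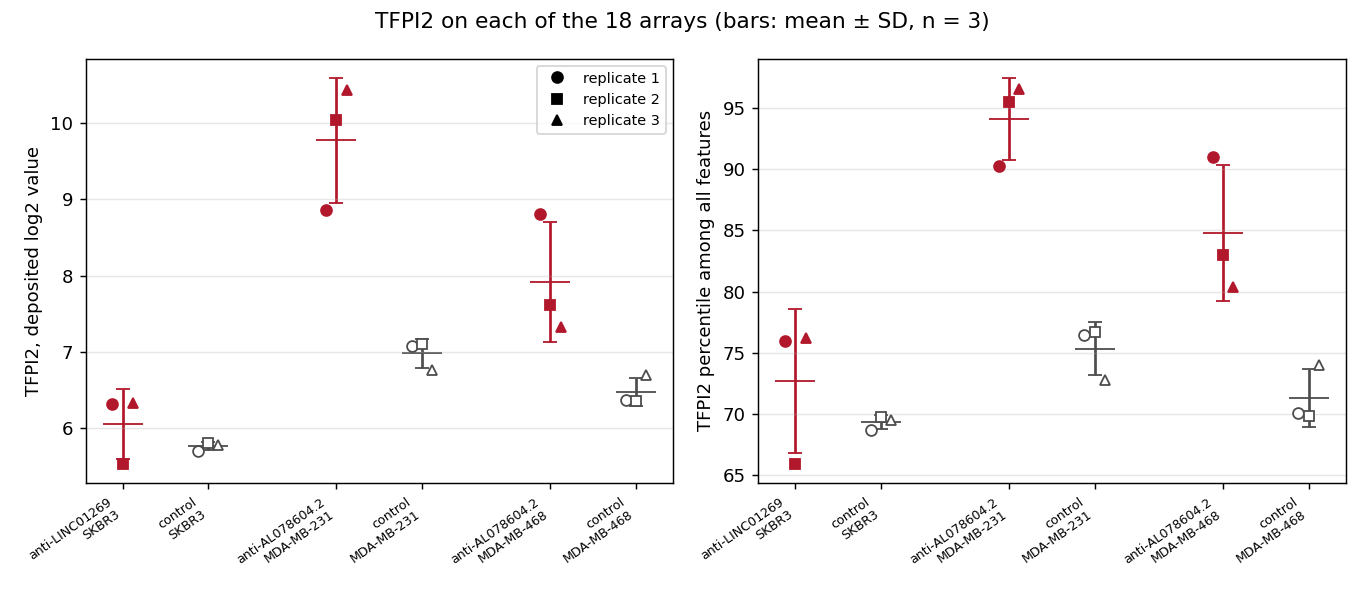
TFPI2 on each array, as the deposited log2 value (left) and as the percentile among all features of the array (right); filled red points are anti-lncRNA arrays, open grey points control arrays, marker shapes are replicate numbers, and bars are mean ± SD (n = 3). All 6 anti-AL078604.2 arrays lie above the control arrays of their line, and the anti-LINC01269 arrays straddle their controls.

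**Figure D2:**
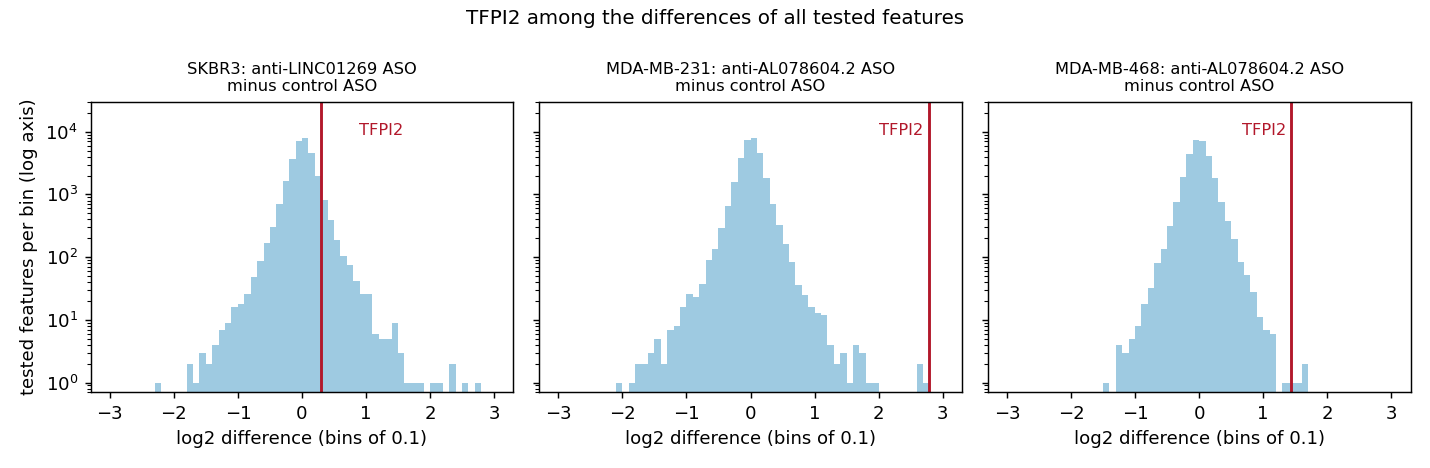
Number of tested features (log axis) in each bin of 0.1 log2 difference, anti-lncRNA ASO minus control ASO, in each line, with the difference of TFPI2 as a red line. TFPI2 lies at the right edge in MDA-MB-231 (2.78) and near it in MDA-MB-468 (1.44). In SKBR3 (0.30) it lies above 94.2% of tested features, well short of the right edge.

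TFPI2 was a mid-level transcript in all control arrays. Its percentile among all features of an array was 69.3 ± 0.575 in SKBR3 control arrays, 71.3 ± 2.38 in MDA-MB-468 control arrays and 75.3 ± 2.19 in MDA-MB-231 control arrays (SD, n = 3 each). The ranges were 68.7 to 69.8, 69.8 to 74.0 and 72.8 to 76.7, so MDA-MB-468 and MDA-MB-231 controls overlapped, and SKBR3 controls ended at the value where those of MDA-MB-468 began. After the ASO the percentile was 72.7 ± 5.88 in SKBR3, 84.8 ± 5.55 in MDA-MB-468 and 94.1 ± 3.36 in MDA-MB-231.

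Ordered from low to high, the 6 groups were SKBR3 control, MDA-MB-468 control, SKBR3 anti-LINC01269, MDA-MB-231 control, MDA-MB-468 anti-AL078604.2 and MDA-MB-231 anti-AL078604.2. Of neighbours in this order, only MDA-MB-231 control arrays (at most 76.7) and MDA-MB-468 anti-AL078604.2 arrays (at least 80.4) were clearly apart. The last 2 groups overlapped, since the highest MDA-MB-468 treated array reached 91.0 and the lowest MDA-MB-231 treated array stood at 90.3. On the quantile-normalized scale the group means kept the same order, from 6.20 in SKBR3 controls to 9.44 in treated MDA-MB-231 arrays.

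TFPI2 varied more between replicates than most features in all groups except SKBR3 controls. Its pooled SD within groups was 0.51 log2 (12 degrees of freedom), against a median of 0.15, and 98.2% of tested features had a smaller one. Of the 1000 features closest to it in mean level, 99.6% had a smaller SD. The spread lay in the treated groups: the SD was 0.82 in treated against 0.19 in control MDA-MB-231 arrays, 0.78 against 0.19 in MDA-MB-468 and 0.46 against 0.05 in SKBR3. The median feature had an SD of 0.12 in treated and 0.10 in control MDA-MB-231 arrays, and of 0.14 and 0.10 in MDA-MB-468. In SKBR3 it had 0.15 in treated and 0.12 in control arrays, and 16.8% of features had a smaller SD than TFPI2 in those controls.

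Likeness to TFPI2 was measured in 2 ways over the 18 arrays and 12002 other tested features with a symbol. In the first, the mean of the line was removed from each value, so that the effect of the ASO remained; in the second, the mean of the group was removed, so that only the spread between replicates remained. The points share arrays and their scaling, and the 3 lines were treated with 2 ASOs, so both are descriptions.

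By the first measure, the 5 genes most like TFPI2 were EDN1, the precursor of the vasoconstrictor endothelin (r = 0.974), DUSP1, a phosphatase that switches off MAP kinases (0.967), CPA4, a secreted carboxypeptidase (0.945), the long non-coding RNA gene FOXD2-AS1 (0.940) and CAVIN1, a coat protein of caveolae (0.933). Spearman's rho for them was 0.955, 0.936, 0.913, 0.880 and 0.930 in the same order. Without the 2 arrays farthest from the median of TFPI2, r was 0.960, 0.953, 0.906, 0.903 and 0.914. Of the 12002 features, 18 had r above 0.9 and 42 had r below -0.9.

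EDN1 had log2 values of 10.56, 11.01 and 11.30 in anti-AL078604.2 arrays of MDA-MB-231, against 9.96, 9.86 and 9.65 in their controls. In MDA-MB-468 it had 9.84, 9.52 and 9.01 in treated arrays, against 8.73, 8.79 and 8.74 in controls. In SKBR3 it had 8.80, 8.37 and 8.71 in treated arrays, against 8.41, 8.30 and 8.53 in controls. The groups were apart in the triple-negative lines and overlapped in SKBR3, as for TFPI2. The differences were 1.14, 0.70 and 0.21 in the order of the sentences.

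CPA4 differed by 0.99 in MDA-MB-231 and 0.70 in MDA-MB-468, and by -0.04 in SKBR3. FOXD2-AS1 differed by 0.68, 0.42 and 0.12, and CAVIN1 by 0.56, 0.34 and 0.16. These genes were picked for following TFPI2, so their differences carry no test here. DUSP1, picked in the same way, has a test below only as a list member. TFPI2 ranked 1 of the tested features with a symbol in both triple-negative lines, so no other named gene could have a larger difference there.

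The genes that ran most against TFPI2 by the first measure were the zinc finger gene ZKSCAN1 (r = -0.957), the ubiquitin ligase gene RNF115 (-0.956), WDR7 (-0.947), ANAPC7, a subunit of the anaphase-promoting complex (-0.941), and the nuclear receptor gene PPARD (-0.940). ZKSCAN1 had log2 values of 9.75, 8.80 and 8.50 in treated MDA-MB-231 arrays, against 10.18, 10.12 and 10.34 in controls. Its differences were -1.20 in MDA-MB-231, -0.84 in MDA-MB-468 and -0.18 in SKBR3. ANAPC7 had differences of only -0.15, -0.08 and 0.02, so a high correlation here does not mean a large difference.

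By the second measure, the 5 genes most like TFPI2 were CD68, a lysosomal glycoprotein used as a macrophage marker (r = 0.906), EDN1 (0.90), the zinc finger gene ZIC5 (0.894), the adhesion molecule gene L1CAM (0.893) and DUSP6, a phosphatase specific for ERK (0.884). Spearman's rho was 0.874, 0.781, 0.794, 0.771 and 0.841. Without the 2 arrays farthest in TFPI2, r was 0.828, 0.838, 0.820, 0.817 and 0.804. EDN1 was the 1 gene in both sets of 5, DUSP1 ranked 7 by the second measure (0.874), and 15 genes were shared between the first 50 of each.

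Within each treated group, the array lowest in TFPI2 was also the lowest in EDN1 and in DUSP1. It was replicate 1 in MDA-MB-231, replicate 3 in MDA-MB-468 and replicate 2 in SKBR3. DUSP1 stood at 8.62 in that MDA-MB-231 array against 8.97 and 9.39 in the other two treated arrays. In MDA-MB-468 it stood at 7.50 against 7.75 and 8.16, and in SKBR3 at 7.14 against 7.58 and 7.69. Array weights, which limma lowers for arrays far from the fit, were 0.576 for the first of these arrays, 0.387 for the second and 0.520 for the third. In the same groups, the arrays highest in TFPI2 had weights of 0.574, 0.479 and 1.45. The part of array quality in this pattern was not tested.

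**Figure D3:**
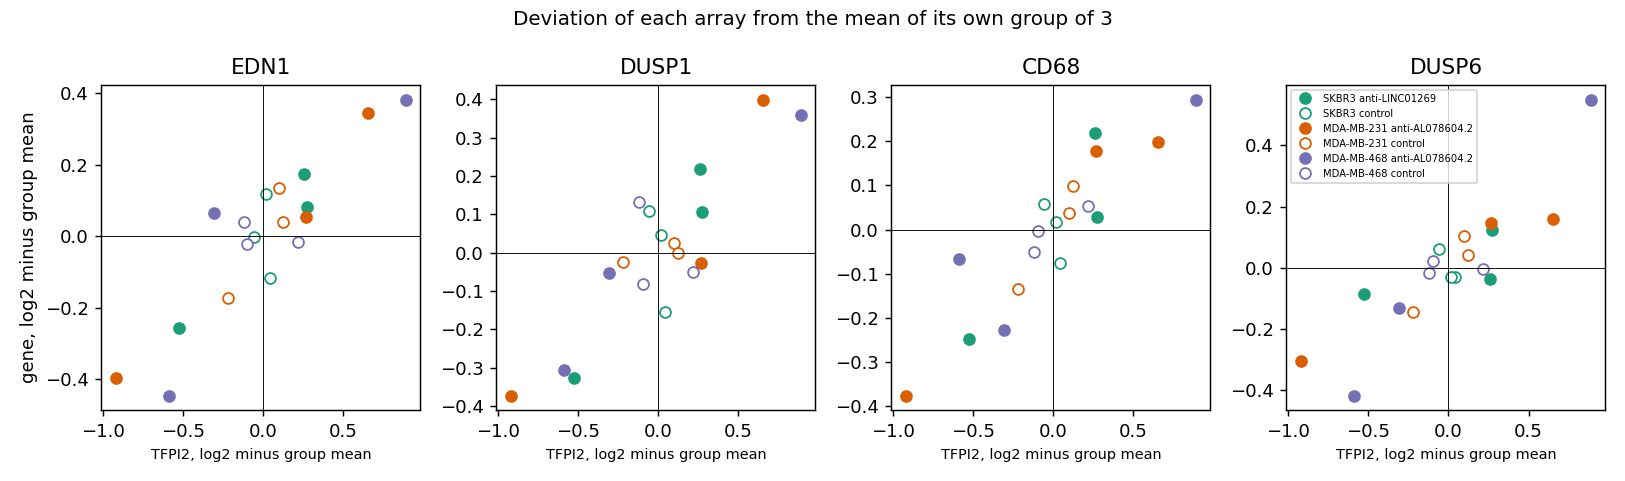
Deviation of each array from the mean of its own group of 3 arrays, for TFPI2 (horizontal axis, log2) and for EDN1, DUSP1, CD68 and DUSP6 (vertical axes, log2); filled points are anti-lncRNA arrays, open points control arrays, and colours are cell lines. Treated arrays spread widest in TFPI2. Some treated arrays go against the common direction. Replicate 2 of treated MDA-MB-468 stands at -0.30 in TFPI2 and 0.06 in EDN1. Replicate 2 of treated MDA-MB-231 stands at 0.27 in TFPI2 and -0.03 in DUSP1. Replicate 1 of treated SKBR3 stands at 0.26 in TFPI2 and -0.04 in DUSP6.

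CD68 belongs to the leukocyte markers, of which 5 of 11 had a symbol. The mean log2 level of these 5 ran from 5.94 to 6.08 in treated MDA-MB-231 arrays and from 5.78 to 5.94 in controls, from 5.46 to 5.81 in treated MDA-MB-468 arrays and from 5.42 to 5.49 in controls, and from 4.74 to 4.89 in treated SKBR3 arrays and from 4.73 to 4.81 in controls. Of these 5, 2 stood under the 50th percentile of features in every group. None of the 3 tested (CD68, CSF1R and NKG7) was called in any comparison. However, CD68 was called in MDA-MB-231 without anti-AL078604.2 replicate 1, where 532 features were called against 51 with all arrays. Fibroblast, endothelial and trophoblast markers, with 8 of 15 named, had mean levels of 4.76 to 4.85 in treated and 4.58 to 4.80 in control MDA-MB-231 arrays, with 4 of them under the 50th percentile in both. Their mean levels were 4.62 to 4.69 in treated and 4.62 to 4.70 in control MDA-MB-468 arrays, and 3.82 to 3.91 and 3.66 to 3.83 in SKBR3, with 5 under the 50th percentile in both lines. None of the 4 tested (VWF, KDR, CLDN5 and CSH1) was called. The part of other cell types in the level of TFPI2 was not tested.

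The tested genes nearest to TFPI2 on chromosome 7 are not next to it in RefSeq order. Between TFPI2 and BET1 lie 4 other RefSeq genes, and between TFPI2 and VPS50 lie 8. The farthest genes shown, FZD1 and OCM2, are 42 and 83 genes away in the same sense. TFPI2 ranked 1 of the tested features with a symbol in both triple-negative lines, so these genes could only have smaller differences there. Of the 20 nearest tested genes with a symbol, 10 on each side in RefSeq order, 0 passed the limma test in MDA-MB-231, where 0.171% of all features were called, 0 in MDA-MB-468, where 0.0067% were called, and 0 in SKBR3. Without anti-AL078604.2 replicate 1, SAMD9 was called in MDA-MB-231, where 532 features were then called against 51 with all arrays. The smallest adjusted p was 0.294 in MDA-MB-231 and 0.318 in MDA-MB-468, both for SAMD9, a growth-restraining gene of the interferon response, and 0.459 in SKBR3, for VPS50. Their median difference was 0.01 in MDA-MB-231, with a range of -0.19 to 0.46, and 0.07 in MDA-MB-468, with a range of -0.23 to 0.46. In SKBR3 the median was -0.03, with a range of -0.34 to 0.37.

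On one side the nearest tested genes were VPS50, which acts in endosomal recycling, SAMD9L and SAMD9. On the other they were BET1, a SNARE of transport from the endoplasmic reticulum, CASD1, a sialic acid acetyltransferase, and the imprinted gene PEG10. VPS50 had log2 values of 7.81, 7.74 and 7.94 in treated MDA-MB-231 arrays, against 7.91, 7.97 and 7.95 in controls, and a difference of -0.11. BET1 differed by 0.23 in MDA-MB-231 and 0.21 in MDA-MB-468 (adjusted p = 0.570 and 0.545 by limma). SAMD9 had 7.59, 7.92 and 8.04 in treated MDA-MB-468 arrays, against 7.50, 7.36 and 7.30 in controls, the largest difference of these neighbours at 0.46. The array lowest in TFPI2 among treated MDA-MB-468 arrays, replicate 3, was the highest in SAMD9. The closer named genes CALCR, MIR653 and MIR489 were below the filter on dim features, and on the side of BET1 no closer gene has a named feature.

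**Figure D4:**
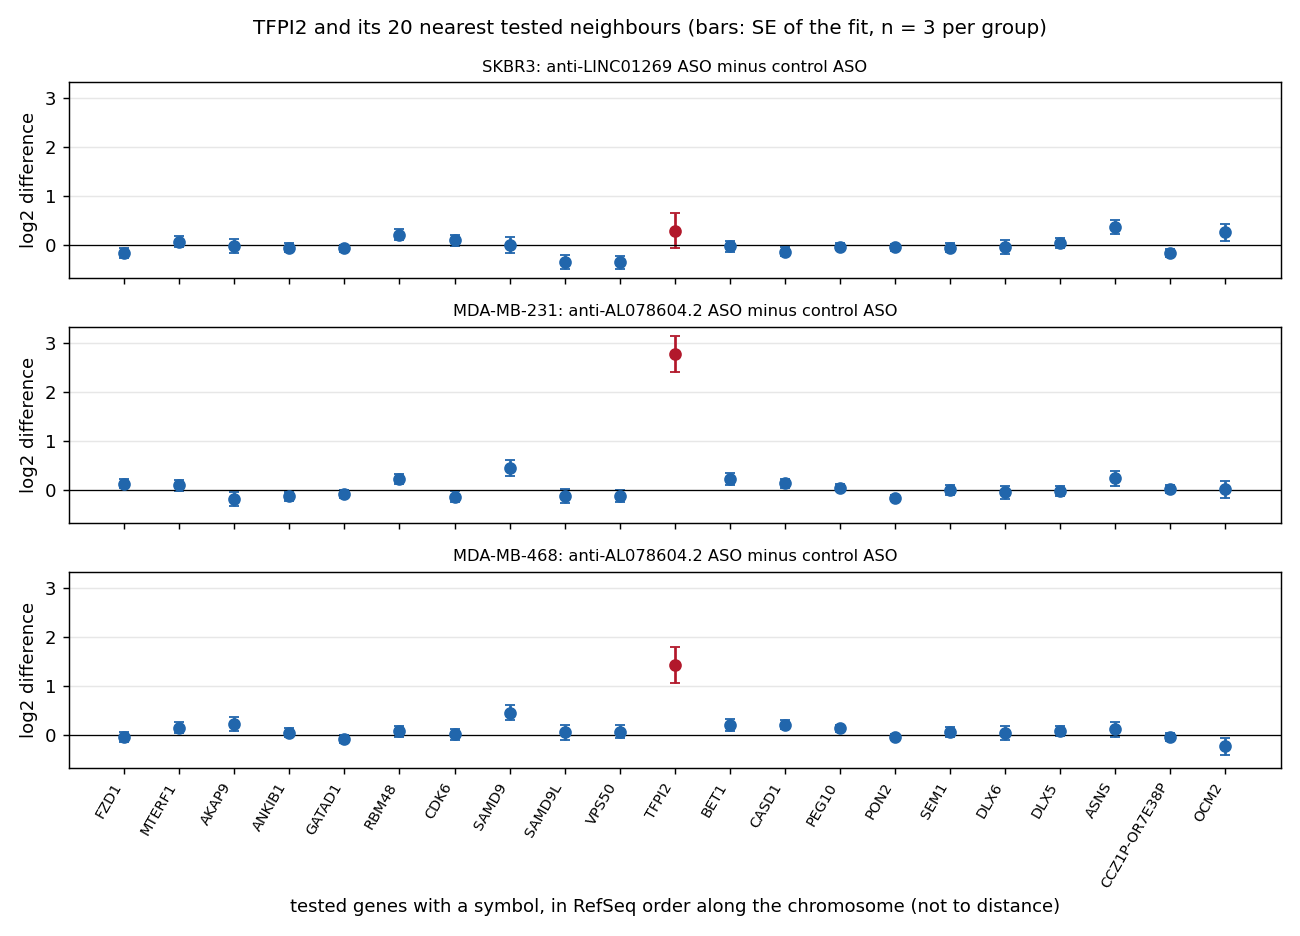
Log2 difference (anti-lncRNA ASO minus control ASO, bars SE of the fit, n = 3 per group) of TFPI2 in red and of its 20 nearest tested neighbours in blue, in RefSeq order along the chromosome, for each line. In both triple-negative lines the largest neighbour difference is 0.46, of SAMD9.

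Of the Kunitz family, clotting, plasminogen, protease and inhibitor lists, only the secreted protease gene HTRA1 had a call as reported here. It came from the list of trypsin-like proteases, and a link of its protein to TFPI2 was not tested. With 0.171% of all features called in MDA-MB-231 and 0.0067% in MDA-MB-468, lists this short say little by a count of 0. Of 4 tested Kunitz genes, 0 rose and 0 fell in any line. TFPI, the paralogue that inhibits the tissue factor pathway, differed by -0.14 in MDA-MB-231, 0.13 in MDA-MB-468 and -0.00 in SKBR3. The secreted precursor gene AMBP differed by 0.04, -0.28 and 0.22 in the same order, and the APP relative APLP2 by -0.07, -0.11 and 0.04. The precursor gene APP, whose longer forms hold a Kunitz domain, had 11.95, 11.67 and 11.64 in treated MDA-MB-231 arrays, against 11.94, 11.87 and 11.96 in controls, a difference of -0.17 (limma adjusted p = 0.661).

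Of 8 tested genes of tissue factor and clotting, 0 were called in any line. The median difference was -0.04 in MDA-MB-231 and 0.12 in MDA-MB-468, against 0.01 and -0.00 over all tested features. F2R, the thrombin receptor, had 6.62, 6.84 and 6.70 in treated MDA-MB-468 arrays, against 6.52, 6.37 and 6.45 in controls (0.27, limma adjusted p = 0.342). The contact factor gene F12 differed by 0.24 and PROS1, which encodes the anticoagulant protein S, by 0.23 in MDA-MB-468, and neither passed. Of the plasminogen system, 2 of 12 genes were tested, ANXA2 and S100A10, which together form a plasminogen receptor. They differed by 0.22 and 0.12 in MDA-MB-231 and by 0.17 and 0.07 in MDA-MB-468, and neither was called. The urokinase, tissue activator and plasminogen genes are unnamed or were not tested here.

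Of 11 tested trypsin-like proteases, 1 fell in MDA-MB-231 and 0 rose, where 0.0737% of all features fell and 0.0971% rose. HTRA1 had log2 values of 6.89, 6.42 and 6.09 in the anti-AL078604.2 arrays, against 7.29, 7.34 and 7.31 in the controls. All treated arrays lay below all controls, as they did for 7.87% of all tested features. The difference was -0.85 ± 0.15 (SE, limma adjusted p = 0.0277). In MDA-MB-468 HTRA1 had 6.29, 6.17 and 6.34 in treated arrays, against 6.85, 6.94 and 6.80 in controls, a difference of -0.60 that did not pass (adjusted p = 0.194 by limma). The kallikrein genes KLK5, KLK6, KLK7, KLK8, KLK10 and KLK11 and the membrane proteases ST14 and HPN were not called in any line.

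Of 8 tested matrix metalloproteinases and their TIMP inhibitors, 0 were called in any line. Without anti-AL078604.2 replicate 1, TIMP2 and TIMP3 were both called in MDA-MB-231, where 532 features were then called against 51 with all arrays. TIMP3, which is bound to the matrix as TFPI2 is, had 7.96, 7.82 and 7.88 in treated MDA-MB-468 arrays, against 8.34, 8.23 and 8.25 in controls (-0.38, limma adjusted p = 0.130). In MDA-MB-231 it had 8.95, 8.77 and 8.65 in treated arrays, against 9.15, 9.03 and 9.07 in controls (-0.29, limma adjusted p = 0.142). Its second tested feature differed by -0.25 in MDA-MB-468 and -0.04 in MDA-MB-231. The membrane-bound collagenase gene MMP14 differed by -0.23 in MDA-MB-231 and 0.00 in MDA-MB-468, and TIMP2 by -0.32 and -0.21. Of 7 tested serpins and other inhibitors, 0 were called in any line, and those in MDA-MB-231 ran from -0.22 for the leukocyte protease inhibitor gene SLPI to 0.12 for CST4. The cystatin genes CST3 and CSTB differed by 0.31 and 0.18 in MDA-MB-468 without passing.

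In the lists of AP-1, EGR, KLF and SP factors and of ERK feedback genes, 3 genes rose in MDA-MB-231. In that line 0.0971% of all tested features rose and 0.0737% fell. An action of these genes on TFPI2 was not tested. The lists were chosen with earlier results of these data known, so their calls are a description and no independent support. Of 17 tested AP-1, EGR, KLF and SP genes, 2 rose, JUN and EGR1, and 0 fell. The median difference over the 17 was 0.34, against 0.01 over all tested features, and 16 lay above 0, against 53.0% of all tested features. JUN, a component of AP-1, had 8.83, 9.05 and 8.91 in treated arrays, against 8.12, 8.24 and 8.11 in controls (0.78 ± 0.12, SE, limma adjusted p = 0.0164). The growth factor-induced EGR1 had 7.50, 7.42 and 7.14 in treated arrays, against 6.43, 6.66 and 6.48 in controls (0.83 ± 0.13, limma adjusted p = 0.0168). A second, dimmer feature of EGR1 differed by 0.25 and was not called. KLF6 differed by 0.34 and SP1 by -0.06, and neither passed.

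Of 16 tested ERK feedback genes, 1 rose in MDA-MB-231, DUSP1, and 0 fell, with a median of 0.35 and 14 above 0. DUSP1 had 8.62, 8.97 and 9.39 in treated arrays, against 7.87, 7.84 and 7.82 in controls (1.15 ± 0.18, SE, limma adjusted p = 0.0208). It is also among the genes most like TFPI2 by the first measure, by which JUN had an r of 0.93 and EGR1 of 0.83. The rises of DUSP1, JUN and EGR1 are therefore not observations separate from that of TFPI2. No member of these 2 lists was called in MDA-MB-468, where the medians were 0.10 and 0.20, or in SKBR3, where they were 0.13 and 0.20. The medians over all tested features were -0.00 in MDA-MB-468 and 0.01 in SKBR3. In MDA-MB-468, 13 of the 17 factors and 14 of the 16 ERK genes lay above 0, against 49.1% of all tested features. In SKBR3, 14 of the 17 and 14 of the 16 did, against 54.0%. DUSP1 had 8.16, 7.75 and 7.50 in treated MDA-MB-468 arrays, against 7.11, 7.32 and 7.14 in controls (0.62, limma adjusted p = 0.272). All 4 list members called in MDA-MB-231 (HTRA1, JUN, EGR1 and DUSP1) lost the call without any 1 of 5 of its arrays. Without anti-AL078604.2 replicate 1, 14 members were called, SAMD9, CD68, TIMP2 and TIMP3 among them. The 14 include CCL2 and CCL20, which passed the filter on dim features only through the treated MDA-MB-231 arrays. In that omission 532 features were called, against 51 of 29855 with all arrays.

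By the second measure of likeness, all 16 ERK feedback genes had an r above 0 with TFPI2, from 0.17 for DUSP2 to 0.88 for DUSP6, with a median of 0.63. Over all 12002 features the median was 0.03 and 52.8% lay above 0. For the 8 NF-kB target genes the median was 0.52, with 7 above 0. These include CCL2 (0.37) and CCL20 (0.76), which passed the filter on dim features only through the treated MDA-MB-231 arrays. For the 17 AP-1, EGR, KLF and SP genes the median was 0.59, with KLF10 highest (0.85) and SP1 lowest (-0.74). EGR1, which rose in MDA-MB-231, had an r of 0.22 over the 18 arrays. Among treated MDA-MB-231 arrays it was lowest in the array that was highest in TFPI2. By the first measure, the ERK genes DUSP2 (r = -0.29) and CCND1 (-0.31) lay below 0 and the others above it. The lists were chosen with earlier results of these data known, and DUSP6 was already named above by the second measure. These values are therefore a description and no independent support.

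Of 8 tested NF-kB target genes, 0 were called in any line, with a median of 0.31 in MDA-MB-231, 0.11 in MDA-MB-468 and 0.05 in SKBR3. The count and the medians include CCL2 and CCL20, so the MDA-MB-231 median draws in part on genes admitted for their level there. The chemokine genes CCL2 and CCL20 passed the filter on dim features only through the treated MDA-MB-231 arrays, so they are given by level alone. CCL2 had 5.57, 6.49 and 6.04 in those arrays, against 5.04, 4.07 and 4.70 in controls, and its group means in the other lines lay under the array medians. CXCL2 differed by -0.06 in MDA-MB-231 and 0.06 in MDA-MB-468. Of 12 tested genes of DNA methylation and silencing, 0 were called in any line, and all lay between -0.17 and 0.22 in MDA-MB-231. The histone deacetylase genes HDAC1 and HDAC2 both differed by 0.10 in MDA-MB-231, and the demethylase gene TET1 by -0.14 there and 0.33 in MDA-MB-468. DNMT1, which maintains methylation, differed by 0.05 in MDA-MB-231, -0.07 in MDA-MB-468 and -0.06 in SKBR3.

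**Figure D5:**
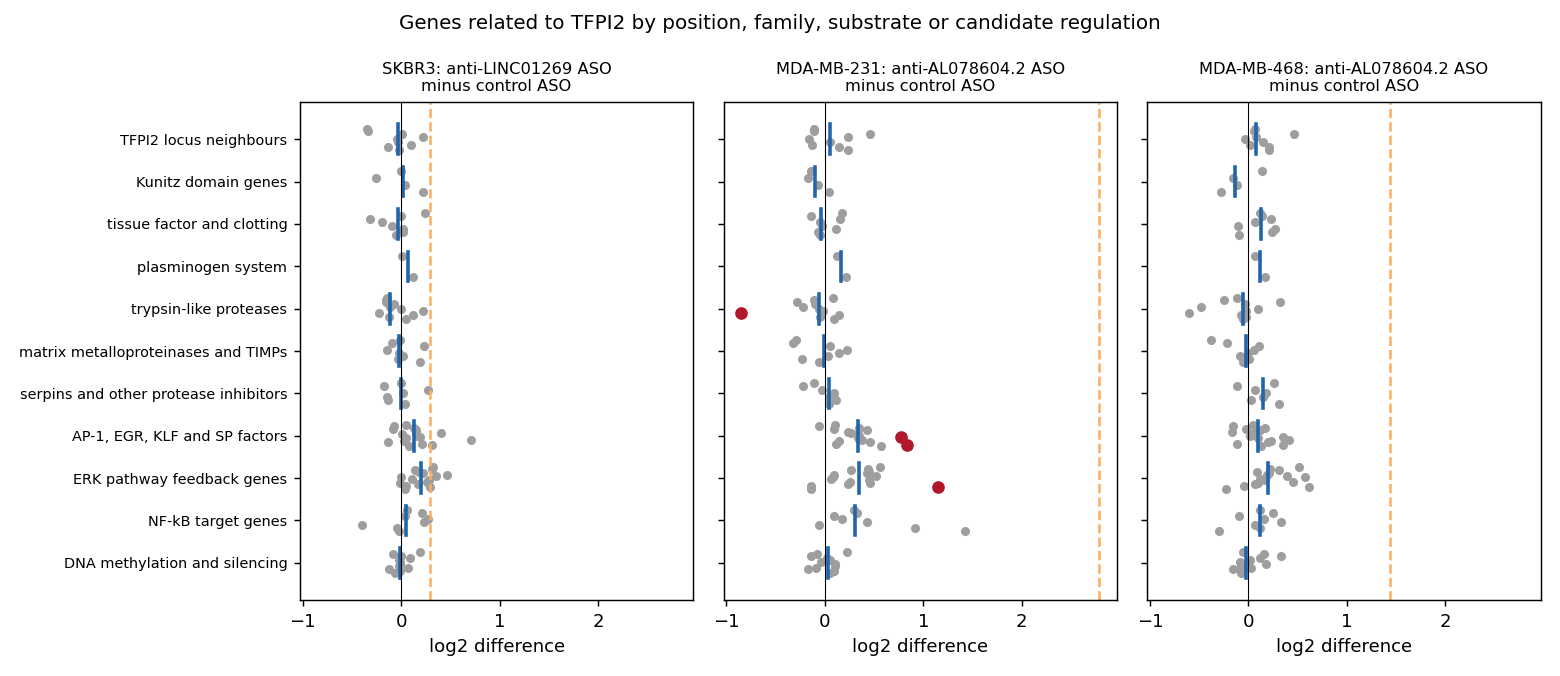
Log2 difference (anti-lncRNA ASO minus control ASO) of each tested gene (points) in lists of genes related to TFPI2, by line; red points passed limma's test, blue bars are list medians and the dashed orange line is TFPI2. The red points are HTRA1, JUN, EGR1 and DUSP1 in MDA-MB-231.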

How the data were processed

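The authors used Transcriptome Analysis Console, as the submitters' processing notes name it. Its version, the summarization method and the genome build are not given in the sources used here. Values as deposited by the authors, from 0.41 to 13.84, were read as log2 from their range. Symbols came from GEO's platform annotation, updated through a RefSeq table of GRCh38.p14 (all 16098 matched), and 37519 features are unnamed here. Testing was limited to the 29855 features whose group mean lay over that group's feature median in 1 or more of the 6 groups. All 18 arrays entered 1 model of group means in limma 3.58.1 in R 4.3.3, with an intensity trend, 12 residual and 4.33 prior degrees of freedom, two-sided tests and Benjamini-Hochberg adjustment over all tested features (threshold 0.05). The fit was tested on simulated data. Arrays give no counts, so their number limits the precision. A gene with several features is given by the one with the highest mean.

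TFPI2, the 13 gene lists and the tests were chosen with earlier results of these data known. Named genes are list members that were called, otherwise up to 3 per list with the smallest p, the 3 nearest tested genes on each side, and the 5 genes most like TFPI2 by each measure; TFPI, KLF6, SP1, KLF10, DUSP2, DNMT1, CST4, CLDN5, the kallikreins, ST14 and HPN were added after their values were seen. Alternatives were quantile normalization, median centring, other filters, single-line fits, no trend, array weights, a replicate block and leaving out each array. Whether shared replicate numbers pair arrays is not stated, and the main fit left arrays unpaired. Deviations of same-numbered arrays correlated at -0.12 to 0.10, which cannot exclude pairing with so few arrays per group.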

Additional observations from a re-analysis of the deposited data

How the results depend on the processing

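The difference of TFPI2 kept its sign in all 3 lines under the 3 settings that can move it (quantile normalization, median centring and array weights) and in each omission of 1 array; other filters, single-line fits, no trend and the block leave a difference of group means as it is. It ran from 2.74 to 2.92 log2 in MDA-MB-231, from 1.18 to 1.43 in MDA-MB-468 and from 0.28 to 0.39 in SKBR3 under these settings, and from 2.46 to 3.24, 0.99 to 1.73 and 0.16 to 0.56 in the omissions. In SKBR3 the adjusted p was at least 0.562 by limma throughout. Counts of called features moved far more. In MDA-MB-231, with 51 calls, 28 were made with no filter, 99 with the filter at the upper quartile, 3 from the line's 6 arrays alone, 26 without the trend and 2413 with array weights. In MDA-MB-468, with 2 calls, 1 was made with the upper filter, 0 from its own arrays and 5199 with array weights. In SKBR3, with 0 calls, 1 was made with no filter. Listed genes called in MDA-MB-231, 4 as reported, numbered 0 from its own arrays and 33 with array weights, and 28 in MDA-MB-468 with array weights against 0. With the replicate block, the calls were 0 features and 0 listed genes in MDA-MB-231 and 0 features in MDA-MB-468. Omitting 1 array gave 0 to 231 calls in SKBR3, 0 to 532 in MDA-MB-231 (listed genes 0 to 14) and 0 to 12 in MDA-MB-468. The cause was not tested.

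The control percentile of TFPI2 was 51.6 in SKBR3, 59.7 in MDA-MB-231 and 54.4 in MDA-MB-468 among features with a symbol, and 44.9, 55.7 and 48.4 among tested features, because dim and unnamed features then drop out. Of the 5 genes most like TFPI2 by the first measure, 3 stayed among the first 5 by Spearman's rho and 2 over the 12 triple-negative arrays. By the second measure 2 and 0 stayed.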
